A study of Mus musculus with 6 samples.

Results

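10 genes of the transforming growth factor-beta (TGF-β) and bone morphogenetic protein (BMP) pathway were followed in liver endothelial cells (ECs) of young and aged mice. They are the ligand gene Tgfb1, the receptor genes Tgfbr1, Tgfbr2, Acvrl1, Eng and Bmpr2, the inhibitory SMAD genes Smad6 and Smad7, and the target genes Id1 and Id3, chosen by name out of the 24421 genes of the count table. RNA came from CD31+CD45- cells sorted from the livers of wild-type C57BL/6J mice, 3 young mice aged 10 weeks and 3 aged mice aged 127, 131 and 136 weeks, with no other treatment in either group. The aged samples are named here by their age in weeks. Total counts per library ran from 23001556 to 31651817, and the 2 ages were compared with edgeR's quasi-likelihood test over the 14612 genes with a depth-scaled count (CPM) of 0.5 or more in 1 or more libraries. All 10 genes passed this filter.

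In this pathway a dimeric ligand brings together type I and type II receptor kinases on the cell surface, and the type I receptor phosphorylates SMAD proteins that enter the nucleus and set transcription. TGF-β signals through TGFBR2 and the type I receptor TGFBR1 (ALK5) to SMAD2 and SMAD3. In ECs, BMP9 and BMP10 signal through BMPR2, the type I receptor ALK1, which Acvrl1 encodes, and the co-receptor endoglin, which Eng encodes, to SMAD1, SMAD5 and SMAD9, and ID1 and ID3 are direct targets of this branch. SMAD6 and SMAD7 are induced by the pathway and inhibit it. Loss of ENG or ACVRL1 function causes hereditary haemorrhagic telangiectasia, a disease of arteriovenous malformations that also affects the liver.

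The libraries held the marker genes of the labelled cells at high levels and those of other cells at lower ones. The CPM of 8 pan-endothelial markers summed to between 10143 and 11595 in the young libraries and between 7303 and 9540 in the aged ones. The sum of 8 sinusoidal EC markers lay between 14727 and 16116 in young and between 6387 and 10562 in aged libraries, and 5 of the 8 were lower in every aged than in every young library, as were 8.33% of all genes tested. In bulk RNA of this kind, fewer cells of a type and less RNA per cell cannot be told apart. Markers of hepatocytes summed to 111 to 174 CPM in young and 72.2 to 96.7 CPM in aged libraries, those of mural cells to 61.0 to 179 and 35.5 to 148, and those of platelets to 28.5 to 34.1 and 23.8 to 32.4. Stellate cell markers summed to 159 to 402 CPM in young and 195 to 640 CPM in aged libraries. Pan-leukocyte markers summed to 423 to 449 and 305 to 525 CPM. Ptprc, which encodes CD45, had a CPM of 1.17 to 1.70 in young libraries and of 7.56, 1.28 and 25.6 in the 127-, 131- and 136-week libraries. Reads on Lars2 and on Rn45s, the ribosomal RNA precursor, made up 1.29% of the counts in young replicate 3 and 0.960% in the 127-week library and between 4.68% and 5.53% in the other 4, so differences within these clusters of 2 and 4 libraries are given where they matter.

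Most of the 10 genes differed little between the ages. None passed an adjusted p of 0.05 in edgeR, a threshold that 0% of all genes tested passed, and 0 of the 10 had an unadjusted p below 0.05, which 12.6% of all genes had. DESeq2 and limma-voom also called 0 of the 10 at an adjusted p of 0.05, where they called 4.57% and 0.103% of all genes, the latter split into 0.089% higher and 0.0137% lower. The log2 fold change of aged over young ECs was positive for 5 and negative for 5, with a median of 0.0028 next to 0.0098 over all genes tested. In 3 of the 10 the ages did not overlap, with Acvrl1 higher and Eng and Bmpr2 lower in every aged library, while 17.9% of all genes tested had such a separation (9.62% higher and 8.33% lower). The same separation held for these 3 genes in the deposited FPKM values, where 17.2% of all genes had it (9.07% higher and 8.14% lower).

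**Figure D1:**
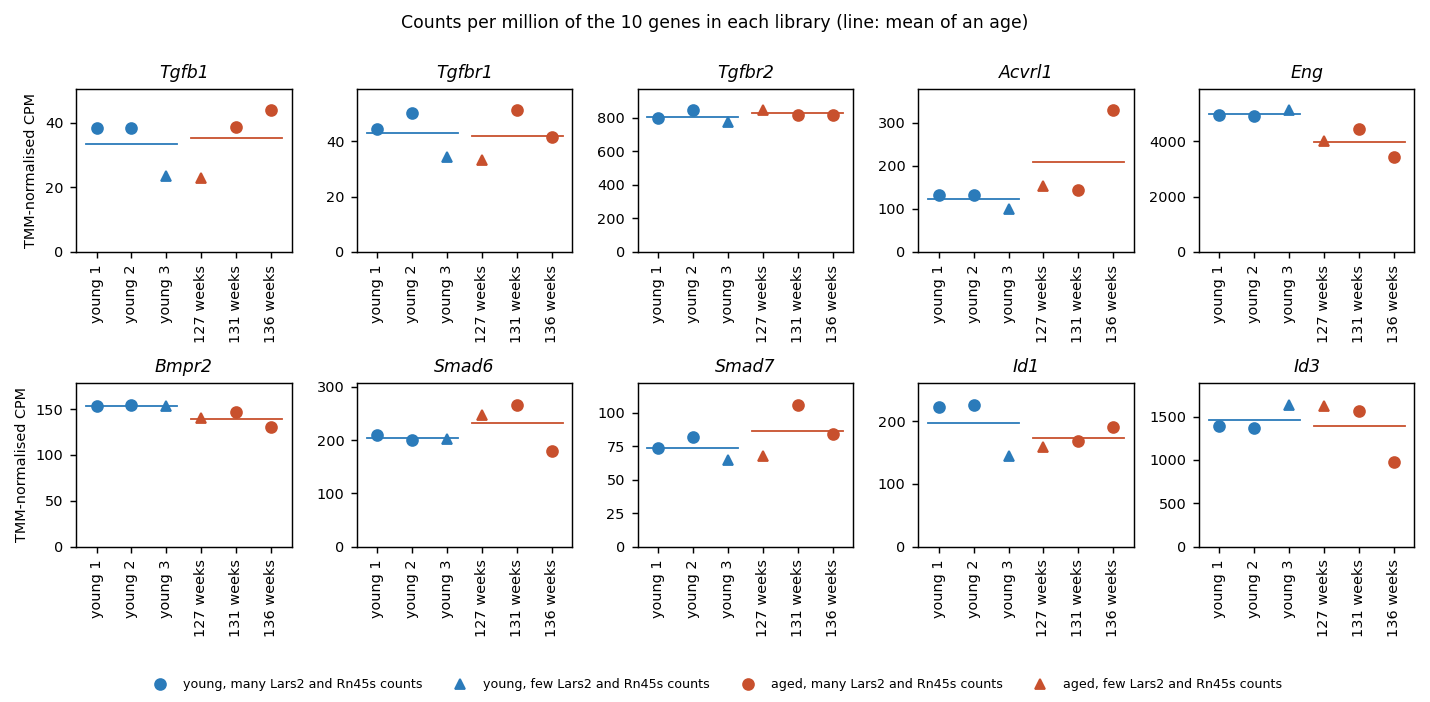
TMM-normalised CPM of the 10 genes in each of the 6 libraries, with the mean of each age as a line, circles for the 4 libraries with many Lars2 and Rn45s counts and triangles for the 2 with few. Acvrl1 reached 330 CPM in the 136-week library against 154 or less in the others, and Eng and Bmpr2 were lower in all 3 aged libraries.

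Levels between genes were compared per transcript length, from the FPKM values. In young ECs Id3 had a mean FPKM of 1907 ± 228 and Eng of 1498 ± 52.7 (SD, n = 3 each), both near percentile 99.9 of all genes in the table. Id1 followed at 262 ± 59.2, Tgfbr2 at 173 ± 6.00, Smad6 at 71.2 ± 1.8 and Acvrl1 at 34.8 ± 4.98 (SD, n = 3 each), and each of these 6 was separated from its neighbours in the order in all 3 young libraries. Smad7 (16.8 ± 1.76), Tgfb1 (16.3 ± 4.76) and Bmpr2 (13.7 ± 0.135) were not separated as neighbours, and Tgfbr1 was lowest at 7.52 ± 1.34 (SD, n = 3 each). The mean levels of the aged libraries had the same order, but there Id3 and Eng, and Smad6 and Acvrl1, overlapped as well. The type II receptor for TGF-β was thus present at a higher FPKM than its type I partner in each library, and the co-receptor endoglin at a higher FPKM than the receptor kinases. The order of some genes, not only of neighbours, was different when it was taken from counts over annotated exon length. Bmpr2 then moved from rank 9 to rank 6 in young and to rank 7 in aged ECs. Both the counting and the gene length can differ between these measures, and their parts were not tested. With counts divided by the annotated exon length, Eng came before Id3, at 1264 against 802 CPM per kilobase in young ECs, and Bmpr2 came before Acvrl1 in young ECs at 42.9 against 27.9 CPM per kilobase but after it in aged ECs at 40.6 against 49.6.

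**Figure D2:**
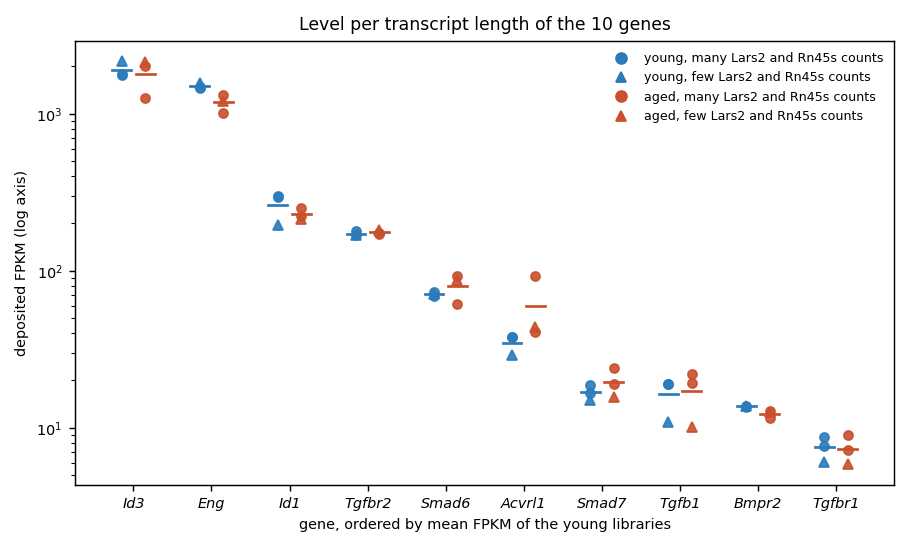
Deposited FPKM on a log axis for the 10 genes in each library, ordered by the young mean shown as a line. Id3 and Eng stand at 1018 FPKM or more in all 6 libraries, and Tgfbr1 lies between 5.85 and 8.96 FPKM.

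Tgfb1 spans 26472021 to 26490096 on chromosome 7 of mm9 and encodes the main TGF-β ligand, which is secreted in a latent form. It had a CPM of 38.3, 38.4 and 23.7 in young replicates 1, 2 and 3 and of 23.0, 38.7 and 44.1 in the 127-, 131- and 136-week libraries. The ages overlapped widely, and the 2 lowest values came from the libraries with few Lars2 and Rn45s counts, 1 of each age. The log2 fold change was 0.076 ± 0.29 (SE, adjusted p = 0.951), and its 95% interval ran from -0.61 to 0.76. Its sign changed without young replicate 3 (-0.12), without the 136-week library (-0.11) and in limma-voom (-0.18).

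The receptor kinases of the TGF-β branch, Tgfbr1 and Tgfbr2, had log2 fold changes close to 0. Tgfbr2, on chromosome 9 (115993415 to 116084383 of mm9), encodes the receptor that binds the ligand, and its CPM was 800.2, 844 and 774 in young replicates 1 to 3 and 847, 814 and 818 in the 127-, 131- and 136-week libraries. These values lay within a narrow band in both ages, at a log2 fold change of 0.035 ± 0.15 (SE, adjusted p = 0.954) with a 95% interval from -0.30 to 0.38. Tgfbr1, on chromosome 4 (47366094 to 47427803), encodes the type I kinase ALK5 and had a CPM of 44.4, 50.2 and 34.3 in young and 33.4, 51.4 and 41.5 in aged libraries in the same order. Its ages overlapped fully, with a log2 fold change of -0.030 ± 0.21 (SE, adjusted p = 0.976) and a 95% interval from -0.53 to 0.47. The sign for Tgfbr1 turned positive with scaling by library size alone (0.025), without young replicate 2 (0.097) and without the 127-week library (0.12).

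Acvrl1 had the largest log2 fold change of the 10 genes in edgeR with all 6 libraries, but not without the 136-week library (0.29 against 0.33 for Smad6) or with a pan-leukocyte term (0.22 against 0.37 for Smad6). It lies on chromosome 15 (100958953 to 100975767 of mm9) and encodes ALK1, a type I receptor found mainly in ECs. Its CPM was 133, 133 and 100.4 in young replicates 1 to 3 and 154, 144 and 330 in the 127-, 131- and 136-week libraries. All 3 aged values were above all young values, and that of the 136-week library was far above the rest. Young ECs averaged 122 ± 18.7 and aged ECs 209 ± 105 (SD, n = 3 per age), which edgeR put at 0.78 ± 0.33 on the log2 scale (SE, adjusted p = 0.398, 95% interval from -0.0033 to 1.56). Of all genes tested, 12.7% had a smaller p. Without the 136-week library the log2 fold change was 0.29 (adjusted p = 0.785), and the other 2 aged libraries still lay above the young ones. Within the clusters of 4 and 2 libraries the difference was 0.71 and 0.61 on the log2(CPM + 1) scale.

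The sums of leukocyte and bile duct markers were also highest in the 136-week library. The 8 pan-leukocyte markers, 7 of them with positive log2 fold changes, summed to 423 to 449 CPM in young and to 305, 350 and 525 CPM in the 127-, 131- and 136-week libraries. Most of this sum came from Arhgdib and Lcp1, with log2 fold changes of -0.65 and 0.28, while the median of the 8 was 2.00. Laptm5, a lysosomal protein gene of leukocytes, had a CPM of 10.2, 4.87 and 6.62 in young and 16.4, 5.33 and 67.7 in aged libraries in the same order. Macrophage markers summed to 33.2 to 62.4 CPM in young and to 98.2, 12.6 and 160 CPM in aged libraries in the same order. The T and NK cell markers summed to 7.48 to 9.87 CPM in the young libraries and to 19.9, 9.64 and 36.7 CPM in the 127-, 131- and 136-week libraries, with 4 of the 7 at 0 in at least 1 library. The summed CPM of the cholangiocyte markers was 89.6 to 109 in young and 193 to 242 in aged libraries, and 8 of 8 had positive log2 fold changes. Most of this sum came from Spp1, with a CPM of 80.6, 77.4 and 96.2 in young and 170, 161 and 206 in aged libraries. Of the 8 markers 2, Spp1 and Sox9, were higher in every aged library, beside 9.62% of all genes tested, and the others overlapped between the ages. When the edgeR model also carried the mean of the 8 pan-leukocyte markers, the log2 fold change of Acvrl1 was 0.22 (adjusted p = 1). The part of other cells in the level of Acvrl1 was not tested. Gm16031, a gene on the opposite strand, overlaps 2.98% of the exon bases of Acvrl1, and the strand setting of the counting is not given in the sources used here.

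The genes most like Acvrl1 over the 6 libraries were Camk2n1, Cd34 and Zfp36, by the root mean square difference of log2(CPM + 1) centred on each gene's mean. That difference was 0.065, 0.093 and 0.11 among 8903 genes with a mean CPM of at least 10, beside a spread of 0.53 of Acvrl1 itself. Cd34, which encodes a surface sialomucin of ECs and blood progenitors, had a CPM of 128, 126 and 81.7 in young and 146, 134 and 280.1 in aged libraries in the same order. It shared with Acvrl1 the low value in young replicate 3 and the high value in the 136-week library. The log2 fold changes of the 3 genes were 0.69, 0.74 and 0.85, with adjusted p of 0.483, 0.402 and 0.381.

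Eng stood lower in all 3 aged libraries. It lies on chromosome 2 (32502115 to 32538189 of mm9) and encodes endoglin, which presents BMP9 and BMP10 to ALK1. Its CPM was 4945, 4904 and 5135 in young replicates 1 to 3 and 4016, 4458 and 3427 in the 127-, 131- and 136-week libraries. The young values lay close together, and the 136-week library was again the farthest from them. Young ECs averaged 4995 ± 123 and aged ECs 3967 ± 518 (SD, n = 3 per age), which edgeR put at -0.33 ± 0.20 on the log2 scale (SE, adjusted p = 0.550, 95% interval from -0.80 to 0.13). Fits that each left out 1 library gave -0.42 to -0.24, and within the clusters of 4 and 2 libraries the difference was -0.33 and -0.35 on the log2(CPM + 1) scale. With DESeq2's Wald test Eng and Acvrl1 had adjusted p of 0.255 and 0.247. Of the 8 sinusoidal markers 1 had a positive log2 fold change, and the median of the 8 was -0.81. Stab2, a scavenger receptor of sinusoidal ECs, had a CPM of 2901, 3198 and 3021 in young and 504, 1759 and 542 in aged libraries in the same order. Of the 8 pan-endothelial markers 2 had positive log2 fold changes, and the median of the 8 was -0.19. Kdr, Tek and Esam, 3 of the 8, were lower in every aged library, as were 8.33% of all genes tested. Pecam1, which encodes CD31, ranged from 1369 to 1589 CPM in young and from 1366 to 1635 CPM in aged libraries. The part of the endothelial markers in the level of Eng was not tested. Atp6ap1 and Trmt2b were the genes most like Eng, with root mean square differences of 0.025 and 0.029 beside a spread of 0.204 of Eng itself. Ak1 on the same strand and Fpgs on the opposite strand overlap 4.78% of the exon bases of Eng.

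Bmpr2, on chromosome 1 (59821481 to 59927703 of mm9), encodes the type II receptor of the ALK1 complex. Its CPM was 153, 155 and 153 in young replicates 1 to 3 and 140, 146 and 131 in the 127-, 131- and 136-week libraries, so the ages were separated by a small margin. Young ECs averaged 154 ± 1.02 and aged ECs 139 ± 7.85 (SD, n = 3 per age), which edgeR put at -0.15 ± 0.12 on the log2 scale (SE, adjusted p = 0.693, 95% interval from -0.43 to 0.14). Of all genes tested, 39.7% had a smaller p. The difference was -0.15 and -0.13 within the clusters of 4 and 2 libraries, on the log2(CPM + 1) scale.

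The 250 bases before the start of Eng and Bmpr2, the receptor genes that were lower in every aged library, and of Smad6, an inhibitor induced by the pathway, are shown as in the RefSeq table of build GRCm38.p6. Of the 10 genes 7 had an entry there, and Acvrl1, Smad7 and Id1 had none. Capitals mark GGCGCC, a GC-rich element bound by SMAD1 and SMAD5, and GTCT or its reverse complement AGAC, the core of the SMAD box. GGCGCC is its own reverse complement, so each search covered both strands.
Eng, chr2:32646345-32646594, plus strand: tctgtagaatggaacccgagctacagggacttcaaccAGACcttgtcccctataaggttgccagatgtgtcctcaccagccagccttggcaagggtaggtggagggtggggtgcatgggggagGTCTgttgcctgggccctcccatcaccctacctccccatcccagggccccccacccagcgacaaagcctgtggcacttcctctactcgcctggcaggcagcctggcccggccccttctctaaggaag
Bmpr2, chr1:59764029-59764278, plus strand: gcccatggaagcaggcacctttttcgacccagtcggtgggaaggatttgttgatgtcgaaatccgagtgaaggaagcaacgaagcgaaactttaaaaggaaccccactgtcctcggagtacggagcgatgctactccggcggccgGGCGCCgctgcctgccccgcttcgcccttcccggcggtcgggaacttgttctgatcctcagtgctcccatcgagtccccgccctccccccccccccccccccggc
Smad6, chr9:64022060-64022309, minus strand: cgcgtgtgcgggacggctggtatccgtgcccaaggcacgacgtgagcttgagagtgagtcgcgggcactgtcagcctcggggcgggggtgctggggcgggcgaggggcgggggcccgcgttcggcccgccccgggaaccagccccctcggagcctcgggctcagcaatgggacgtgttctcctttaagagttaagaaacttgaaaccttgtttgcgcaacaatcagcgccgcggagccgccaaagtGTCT
In these windows Eng held 2 matches to GTCT or AGAC and none to GGCGCC, Bmpr2 held 1 match to GGCGCC and none to the other, and Smad6 held 1 match to GTCT or AGAC and none to GGCGCC. Of 32851 promoters of the same length, 9.59% held GGCGCC and 82.9% held GTCT or AGAC. The palindrome GTCTAGAC, a joined pair of SMAD boxes that contains both GTCT and AGAC, was in 0.167% of these promoters and in none of the 3 shown. A match describes the letters of the window and not a bound site.

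**Figure D3:**
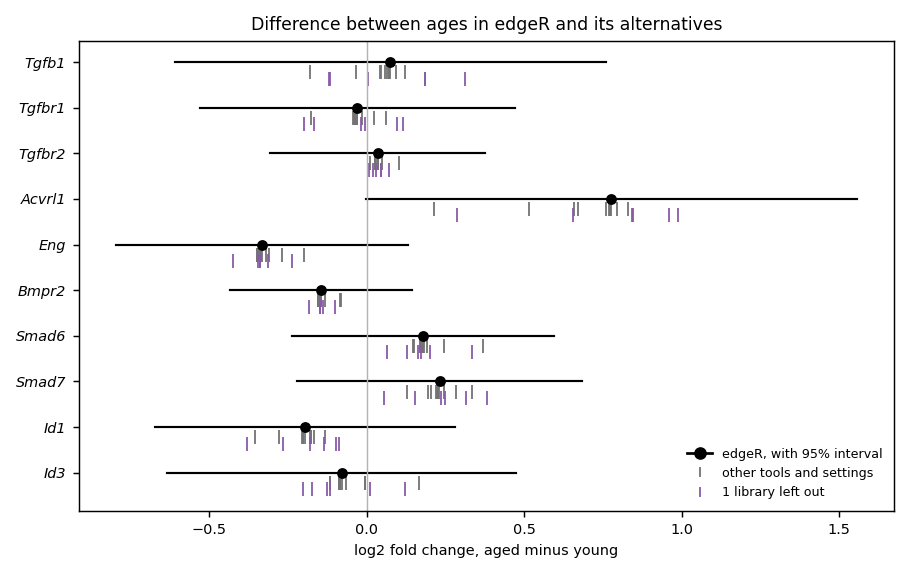
Log2 fold change of aged over young ECs for the 10 genes, with points and bars for edgeR and its 95% interval, grey ticks for 11 other tools or settings and purple ticks for the 6 fits that each left out 1 library. The interval of each gene includes 0, and that of Acvrl1 begins at -0.0033.

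The inhibitory SMAD genes had small positive log2 fold changes and overlapping ages. Smad6, on chromosome 9 (63800953 to 63869866 of mm9), encodes the SMAD that acts mainly against the BMP branch. It had a CPM of 210.5, 199.8 and 203 in young replicates 1 to 3 and of 248, 267 and 179 in the 127-, 131- and 136-week libraries. The 127- and 131-week libraries were above all young values and the 136-week library was below them. The log2 fold change was 0.18 ± 0.18 (SE, adjusted p = 0.741, 95% interval from -0.24 to 0.60), with 0.33 without the 136-week library and 0.065 without the 131-week library. Smad7, on chromosome 18 (75527183 to 75555589), encodes the inhibitor of both branches. Its CPM was 73.6, 81.7 and 64.9 in young and 68.0, 106 and 84.6 in aged libraries in the same order, with the 131-week library highest. Its log2 fold change was 0.23 ± 0.19 (SE, adjusted p = 0.684, 95% interval from -0.22 to 0.69), and 0.055 without the 131-week library.

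The ID genes encode inhibitors of DNA binding that hold basic helix-loop-helix factors away from DNA. Id1 spans 152561987 to 152563146 on chromosome 2 of mm9. Its CPM was 223, 227 and 144 in young replicates 1 to 3 and 159, 169 and 190.1 in the 127-, 131- and 136-week libraries. The aged values lay between the low young replicate 3 and the other 2 young replicates. The log2 fold change was -0.19 ± 0.20 (SE, adjusted p = 0.756, 95% interval from -0.67 to 0.28). It was -0.38 without young replicate 3, -0.098 without young replicate 1 and -0.086 without young replicate 2, and the difference was -0.32 and 0.15 within the clusters of 4 and 2 libraries on the log2(CPM + 1) scale, so the direction was not the same in both. Id3, on chromosome 4 (135699412 to 135701670), had a CPM of 1387, 1368 and 1640 in young and 1623, 1563 and 976 in aged libraries in the same order. 5 libraries lay between 1368 and 1640 CPM, and the 136-week library stood below them. Its log2 fold change was -0.078 ± 0.24 (SE, adjusted p = 0.938, 95% interval from -0.63 to 0.48), and turned positive without young replicate 3 (0.0097) or the 136-week library (0.12).

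Young replicate 3 and the 127-week library, which have few Lars2 and Rn45s counts, lay on 1 side of the other 4 in 5 of the 10 genes, as in 30.7% of all genes tested. In 4 of them, Tgfb1, Tgfbr1, Smad7 and Id1, they were the 2 lowest of the 6, and in 1, Id3, they were the 2 highest. Over all genes tested, 14.1% had these 2 libraries below and 16.6% above the other 4. For Tgfb1 the library of the smaller cluster was lower by 0.67 in young and by 0.82 in aged ECs on the log2(CPM + 1) scale, more than the difference between the ages within either cluster (0.103 and -0.037). With a term for the cluster in the edgeR fit the log2 fold changes of the 10 genes ran from -0.33 for Eng to 0.76 for Acvrl1, with the smallest adjusted p at 0.293, in a fit that called 0.0137% of all genes (0.00684% higher and 0.00684% lower).

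Ratios of FPKM within a library do not depend on the scaling between libraries, and 4 of them were compared by two-sided exact permutation tests, which cannot give a p below 0.1 with 3 mice against 3. The ratio of the type I receptors, Acvrl1 to Tgfbr1, was 4.87, 4.31 and 4.76 in young replicates 1 to 3 and 7.54, 4.53 and 12.99 in the 127-, 131- and 136-week libraries (exact permutation test, p = 0.3, adjusted p = 0.6). The 131-week library lay among the young ones and the other 2 above them. The ratio of the type II receptors, Bmpr2 to Tgfbr2, was 0.0796, 0.0764 and 0.0819 in young and 0.0687, 0.0748 and 0.0666 in aged libraries. Each aged value was below each young value, a log2 difference of -0.18 at the smallest p this design allows (exact permutation test, p = 0.1, adjusted p = 0.4). Smad6 to Smad7 was 4.36, 3.72 and 4.74 in young and 5.54, 3.82 and 3.24 in aged libraries in the same order, and Id1 to Id3 was 0.165, 0.170 and 0.0895 in young and 0.0999, 0.111 and 0.199 in aged libraries. Both pairs overlapped between the ages (exact permutation test, p = 1 for each).

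**Figure D4:**
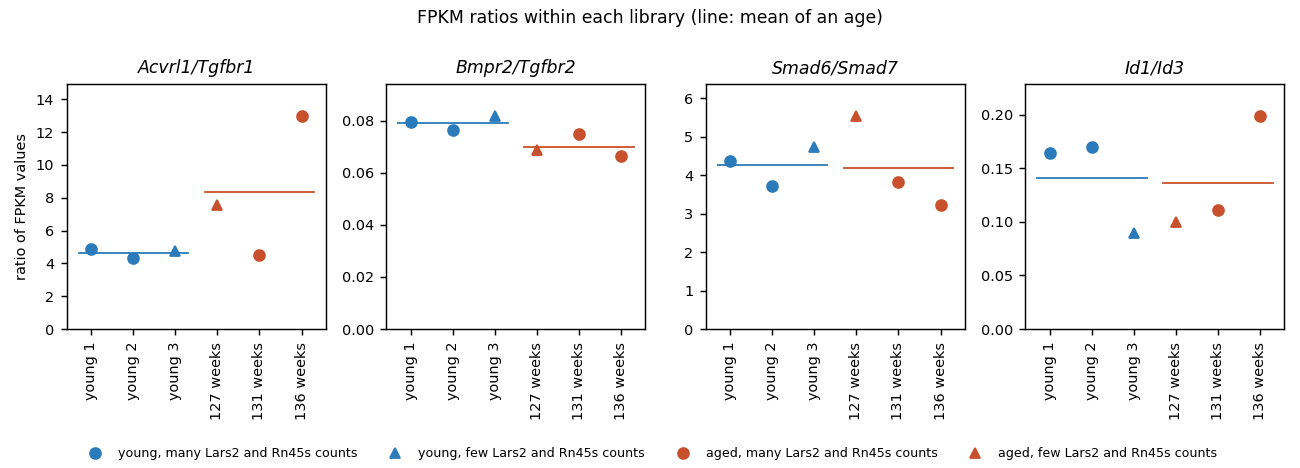
Ratios of FPKM values for 4 pairs of genes in each library, with the mean of each age as a line. Bmpr2 to Tgfbr2 is lower in each of the 3 aged libraries, and Acvrl1 to Tgfbr1 is 12.99 in the 136-week library.

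The rest of the pathway was described from lists of 97 genes by role, of which 85 passed the filter. None of the 85 passed an adjusted p of 0.05 in edgeR, where 0% of all genes did. At an unadjusted p below 0.05 there were 19 higher and 2 lower in aged ECs, beside 8.32% of all genes higher and 4.32% lower. DESeq2 called 9 higher and 2 lower at an adjusted p of 0.05, beside 3.46% and 1.11% of all genes. The median log2 fold change of the 85 was 0.28, next to 0.0098 over all genes tested, and 57 were positive and 28 negative.

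Among the ligands, Gdf15, a stress-induced member of the TGF-β family, had the largest positive log2 fold change. Its CPM was 2.23, 1.76 and 1.92 in young replicates 1 to 3 and 18.9, 10.8 and 74.5 in the 127-, 131- and 136-week libraries, so the ages were far apart. The log2 fold change was 4.13 ± 0.74 (SE, adjusted p = 0.193 in edgeR and 4.95e-08 in DESeq2). Inhba, which encodes the activin A subunit, had a CPM of 0.252 to 2.05 in young and of 9.18, 0.856 and 18.0 in aged libraries, so its ages overlapped (log2 fold change 3.07 ± 1.10 SE, adjusted p = 0.339 in edgeR and 0.0320 in DESeq2). Bmp2, a BMP ligand of sinusoidal ECs, had a CPM of 1371, 1409 and 1271 in young and 361, 1213 and 380 in aged libraries in the same order. All aged values were lower, that of the 131-week library only slightly, with a log2 fold change of -1.05 ± 0.47 (SE, adjusted p = 0.413). Bmp6, which with Bmp2 drives hepcidin in hepatocytes, overlapped between ages at a log2 fold change of -0.032 (adjusted p = 0.985), and its sign changed in limma-voom and when young replicate 1 or 3 or the 127-week library was left out. Bmp4 had a log2 fold change of 0.85 (adjusted p = 0.414). Gdf2, which encodes the ALK1 ligand BMP9 and is made by stellate cells, had a CPM of 9.27, 6.72 and 0.726 in young and of 0.156 to 0.934 in aged libraries, with young replicate 3 among the aged values (log2 fold change -3.34 ± 0.99 SE, adjusted p = 0.277 in edgeR and 0.0102 in DESeq2). The 8 stellate cell markers summed to 402, 359 and 159 CPM in young and 445, 195 and 640 CPM in aged libraries, a sum carried mostly by Reln and Dcn. Of these 8 markers, 4 had positive log2 fold changes, and the median was -0.084. Hgf and Lrat were lower in every aged library, as were 8.33% of all genes tested, with log2 fold changes of -2.35 and -2.19. Colec11 was at -1.01 and Reln at 1.23. The part of stellate cells in the level of Gdf2 was not tested. Gdf7 stayed at or below 1.09 CPM in all 6 libraries.

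Genes that store and release latent TGF-β included some of the most abundant of the pathway. Ltbp4, a latent TGF-β binding protein gene, had young and aged mean CPM of 2379 ± 418 and 2209 ± 442 (SD, n = 3 per age), and Lrrc32, which encodes the surface anchor GARP, had a log2 fold change of -0.077 (adjusted p = 0.932), and the sign of both changed without the 127-week library (0.055 for Ltbp4, 0.0013 for Lrrc32). Nrros, an anchor known from microglia and macrophages, had a log2 fold change of -0.36 (adjusted p = 0.587). Ltbp1 had a CPM of 41.7, 44.6 and 23.5 in young and 64.2, 53.9 and 177 in aged libraries in the same order, with no overlap (log2 fold change 1.43 ± 0.48 SE, adjusted p = 0.325). Thbs1, which encodes thrombospondin-1, an activator of latent TGF-β, had a log2 fold change of 1.36 (adjusted p = 0.374) with its highest value, 407 CPM, in the 136-week library.

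Of the other receptors and SMADs, the abundant ones had small log2 fold changes. Tgfbr3, the co-receptor betaglycan, was at -0.18, Smad1 at 0.104 and Smad4, the SMAD shared by both branches, at -0.12, with adjusted p from 0.717 to 0.887, and the sign for Smad1 was negative without the 136-week library (-0.096). Bmpr1a, a type I BMP receptor, had a CPM of 2.35 to 4.47 in young and of 4.95 to 7.62 in aged libraries, without overlap (log2 fold change 1.01, adjusted p = 0.340). Smad5, an effector of the ALK1 branch, had a log2 fold change of 0.45 (adjusted p = 0.362) and Smad3, an effector of the TGF-β branch, one of 0.48 (adjusted p = 0.442). The BMP antagonist gene Chrd and the activin antagonist gene Fstl3 stayed below 1 CPM in every library.

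A list of 13 genes covered intracellular inhibitors and protein turnover in the pathway, without Smad6 and Smad7. Of these, 4 were higher in every aged than in every young library, beside 9.62% of all genes. DESeq2 called 4 of the 13 higher and 0 lower, beside 3.46% and 1.11% of all genes. Pmepa1, which encodes a membrane protein that withholds SMAD2 and SMAD3 from the receptor and is itself induced by TGF-β, had a CPM of 13.8, 13.5 and 16.6 in young replicates 1 to 3 and 33.3, 23.5 and 38.6 in the 127-, 131- and 136-week libraries. Its log2 fold change was 1.12 ± 0.22 (SE, adjusted p = 0.193 in edgeR and 0.00167 in DESeq2). Skil, which encodes the SMAD co-repressor SnoN, had a CPM of 63.6, 76.6 and 87.6 in young and 113, 133 and 168 in aged libraries in the same order, and a log2 fold change of 0.86 ± 0.20 (SE, adjusted p = 0.235 in edgeR and 0.0107 in DESeq2). Tgif2, another co-repressor gene, had a CPM of 1.96 to 3.75 in young and of 9.56 to 38.7 in aged libraries and a log2 fold change of 2.76 ± 0.59 (SE, adjusted p = 0.209 in edgeR and 1.62e-04 in DESeq2). For these 3 genes the young and aged libraries were separated, and the differences within the clusters of 4 and 2 libraries were 1.09 and 0.97 for Pmepa1, 1.09 and 0.37 for Skil and 2.35 and 1.84 for Tgif2 on the log2(CPM + 1) scale. Tgif1, named after its values were seen, was the fourth, with a log2 fold change of 1.51 (adjusted p = 0.301 in edgeR and 0.0356 in DESeq2). Bambi, a pseudoreceptor gene, and Fkbp1a, whose product blocks type I receptors, lay at 0.25 and -0.21 on the log2 scale (adjusted p = 0.778 and 0.730).

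Among the target genes of the BMP and ALK1 branch beside Id1 and Id3, Hey1, a transcriptional repressor gene that Notch also induces, had a CPM of 10.6, 14.0 and 14.9 in young replicates 1 to 3 and 35.9, 31.9 and 88.0 in the 127-, 131- and 136-week libraries. The ages did not overlap, with a log2 fold change of 1.98 ± 0.41 (SE, adjusted p = 0.203 in edgeR and 3.36e-04 in DESeq2). Tmem100, a target of ALK1 in arterial ECs, was between 1.01 and 4.38 CPM in 5 libraries and 89.0 CPM in the 136-week library. Id2 had a log2 fold change of 0.56 (adjusted p = 0.522), and Gja4, which encodes the gap junction protein connexin 37, one of -0.77 (adjusted p = 0.482). Of the TGF-β and SMAD3 targets, Twist1, a transcription factor gene, had a CPM of 14.9, 14.8 and 8.11 in young and 2.54, 5.87 and 3.09 in aged libraries in the same order, all aged values being lower (log2 fold change -1.71 ± 0.40 SE, adjusted p = 0.235 in edgeR and 0.00452 in DESeq2). Ctgf had a log2 fold change of -0.39 (adjusted p = 0.761) that turned to 0.26 without young replicate 3. Cdkn1a, which encodes the cell cycle inhibitor p21, had one of 0.56 (adjusted p = 0.422), with every aged above every young library. Fn1, named after its values were seen, had a log2 fold change of 1.73 (adjusted p = 0.332 in edgeR and 0.0420 in DESeq2). Of the factors that ID proteins bind or compete with, Tcf4 was at 0.16 and Tal1 at 0.39 (adjusted p = 0.740 and 0.606).

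**Figure D5:**
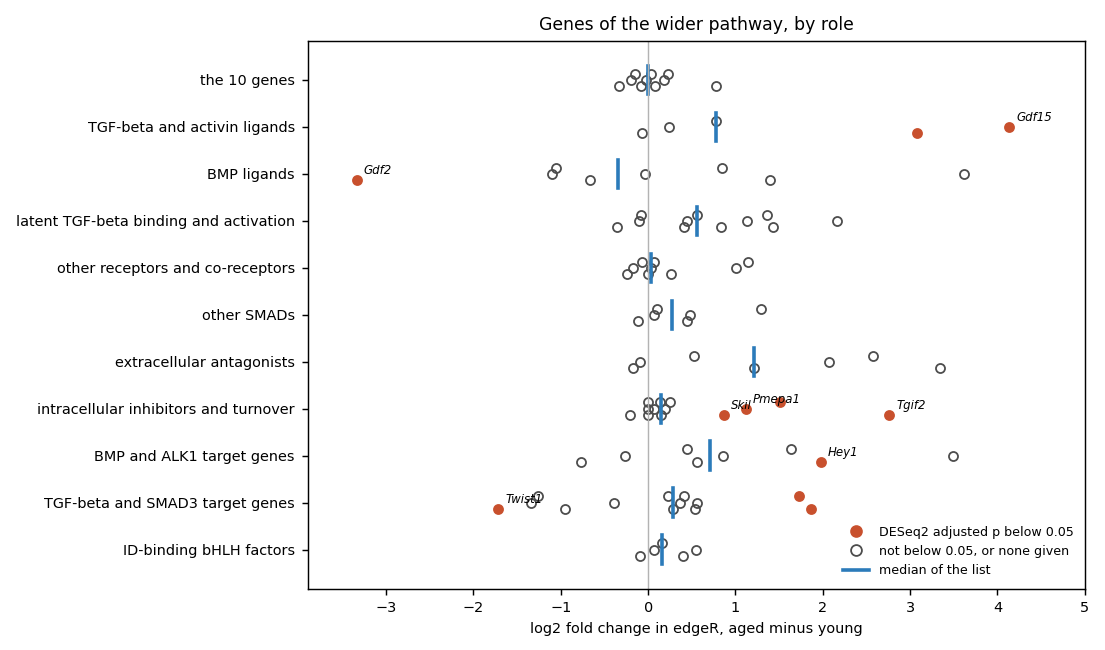
Log2 fold change in edgeR of aged over young ECs for the 10 genes and for 85 other pathway genes by role, 1 point a gene, filled where DESeq2 gave an adjusted p below 0.05 and named for the 7 smallest of these, with the median of each list as a bar. The 10 genes lie between -0.33 and 0.78, while 9 other genes called by DESeq2 lie on the right and 2, Gdf2 and Twist1, on the left.

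Of 10 immediate early genes, a class that tissue dissociation is known to induce, 6 were higher and 1, Dusp1, was lower in every aged library, beside 9.62% and 8.33% of all genes tested, and their summed CPM was 18683 to 22717 in young and 21550 to 27931 in aged libraries, highest at 136 weeks. Their part in the values above was not tested.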

How the data were processed

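RNA from CD31+CD45- liver ECs of 3 young and 3 aged mice was sequenced by the authors in 75-base single-end mode, with base calling by CASAVA 1.8.2 and mapping to mm9 with TopHat2 2.1.0, per the labels and the study's methods. The authors deposited unnormalized whole-number counts for each gene symbol and FPKM values from Cuffnorm 2.2.1, scaled between samples. The counting program, its annotation and its strand setting are not given in the sources used here.

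A CPM of 0.5 or more in any 1 sample was required (14612 of 24421 genes). These counts were normalized by TMM and compared with the quasi-likelihood test of edgeR 4.0.16 (R 4.3.3). P-values were adjusted by Benjamini-Hochberg over all genes, at a threshold of 0.05. Each standard error (SE) is the log2 fold change over the root of F, and 95% intervals use the test's degrees of freedom. P-values set the difference between the ages against the spread between samples of an age, and no batch labels are given. 3 counts corresponded to at most 0.130 CPM, a floor for counting error only. DESeq2 1.42.0, limma 3.58.1 (voom with sample weights, and log2 FPKM with pseudocounts of 0.1 and 1), other scalings and filters, terms for the library cluster and the pan-leukocyte mean, and the removal of each sample served as alternatives. No pair of samples of one age was alike enough to be 1 library deposited under 2 names (smallest chi-square per degree of freedom 20.2). That value belonged to young replicates 1 and 2, which were more alike than any other pair (146 to 186).

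The 10 genes, the pathway and marker lists, and the tests were chosen with earlier results of these data known. Named beside the 10 are, per pathway list, the 2 genes with the smallest p, any past the threshold and any with a mean CPM over 100, and, for the 2 of the 10 with the smallest p, the 3 genes with the most similar profile. Of the genes this rule names, 2 are not reported here. Positions and exon lengths are those of GENCODE vM1 on mm9, where no 75-base stretch of the 10 genes' transcripts occurred in a transcript of another protein-coding gene. The edgeR and DESeq2 fits were tested on simulated data.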

Additional observations from a re-analysis of the deposited data

How the results depend on the processing

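The labels give no pairing of young with aged samples, so the ages were compared as independent groups. The count of the 10 genes past an adjusted p of 0.05 was 0 under all 17 alternatives fitted. For the other pathway genes it was 0 except with DESeq2 (11) and with the pan-leukocyte term (1, Gdf15), and 21 had an unadjusted p below 0.05. The genes without overlap between the ages numbered 3 of the 10, beside 17.9% of all genes tested. With each library left out in turn, an alternative added after seeing the data, they numbered 3 to 5, with 5 reached without the 127-week library. Separation comes more easily with fewer libraries. The share of all genes was not computed for these fits, so the counts have no baseline. The signs of Tgfbr2, Acvrl1, Eng, Bmpr2, Smad6, Smad7 and Id1 held in all 17 alternatives, with the log2 fold change of Acvrl1 between 0.22 (pan-leukocyte term) and 0.99 (without the 131-week library) and that of Eng between -0.42 and -0.20.

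Changes of sign were found for genes with a log2 fold change between -0.107 and 0.104, and for Ctgf (-0.39). In limma-voom they were -0.18 for Tgfb1, 0.035 for Bmp6, 0.067 for Lrrc32, -0.027 for Smad1 and 0.15 for Ctgf. With the pan-leukocyte term they were -0.035 for Tgfb1, 0.063 for Tgfbr1, 0.17 for Id3, 0.12 for Bmp6 and -0.107 for Smad1, and with library size alone 0.025 for Tgfbr1. With each library left out in turn they ran from -0.12 to 0.31 for Tgfb1, -0.20 to 0.12 for Tgfbr1, -0.203 to 0.12 for Id3, -0.42 to 0.27 for Bmp6, -0.22 to 0.055 for Ltbp4, -0.22 to 0.12 for Lrrc32, -0.096 to 0.22 for Smad1 and -0.65 to 0.26 for Ctgf. The log2 ratio of Smad6 to Smad7 ran from -0.27 to 0.11 and that of Id1 to Id3 from -0.37 to 0.13 with each library left out, and within the cluster of 2 libraries they were 0.23 and 0.16. With CPM per kilobase of annotated exons, 4 of 10 ranks in young and 5 of 10 in aged ECs stayed the same, and 8 to 10 young ranks did with each library left out. The cause of these changes was not tested. With 3 mice against 3, the intervals given ran from -0.61 to 0.76 for Tgfb1 and from -0.63 to 0.48 for Id3. Both intervals include differences of either sign. The smallest difference that this design could detect was not computed.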
